A study of Homo sapiens with 7 samples.

Results

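Silencing of the deadenylases CNOT6L, CNOT7 and nocturnin (NOC, gene symbol NOCT) was compared as 1 arm of 3 arrays, anti-CNOT6L-shRNA, anti-CNOT7-shRNA and anti-NOC-shRNA, with an arm of 2 control arrays, empty-vector and non-target-vector. These are 5 of the 7 arrays of the series, and the other arrays, anti-PARN-shRNA and anti-CNOT6-shRNA, were used for reference. All RNA came from NCI-H520, an established human cell line derived from a squamous cell carcinoma of the lung. Every culture received 6 µg of its plasmid, was put under puromycin (6 µg/mL) at 12 h and was harvested at 72 h, the controls included. Each group had 1 array, and how many cultures stood behind an array is not given in the sources used here. Every test below therefore measures its spread among shRNAs of different targets and among unlike control plasmids, with no repeat of any 1 condition.

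The slide row coincided with this comparison. All arrays lay on 1 slide, where row 1 held both controls together with PARN and CNOT6 silencing, and row 2 held the 3 arrays of the shRNA arm. Slide row and shRNA arm cannot be told apart for any difference between the arms. Feature extraction of the NOC shRNA image had a day of its own. The share of gene probes above background ranged from 82.0% to 91.4% over the 7 arrays, with both extremes among the controls (non-target-vector and empty-vector). Pairs of arrays within the shRNA arm differed with an SD of 0.27 to 0.31 log2 across probes, whereas the pair of control arrays differed with an SD of 0.59, so the arm of different shRNAs was the more uniform one. Of 18 squamous markers 13 were above background on all 7 arrays, among them SOX2, KRT6A and KRT6B, but the defining markers TP63, KRT5 and KRT14 were so on at most 4 arrays and DSG3 on 0. The simple epithelial keratins KRT18 and KRT19 were above background on all 7.

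Deadenylases shorten the poly(A) tail of mRNA, a step that commonly precedes decay of the message. CNOT6L and CNOT7 are catalytic subunits of the CCR4-NOT complex, which adaptor proteins such as those of the ZFP36 family bring to mRNAs with AU-rich elements, among them many immediate early transcripts. Nocturnin is related to the CCR4 subunits by sequence, and its expression is known for a daily rhythm. Values are given as levels, which are log2 signals relative to the 75th percentile of each array (a level of 0 is that percentile), and as differences between mean levels of the arms with their standard error (SE).

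Among the 5 arrays the targeted mRNAs were each lowest on the array of their own shRNA, and no deadenylase passed limma between the arms. CNOT7, measured by a pair of probes, read 1.05 and 1.14 on the empty-vector and non-target-vector arrays and 0.21 on the CNOT7 shRNA array with the first probe (A_23_P394166), which is 54.2% of the control mean. On the CNOT6L and NOC shRNA arrays this probe read 1.25 and 1.37, above both controls. With the other probe (A_32_P141262) the CNOT7 shRNA array was at 50.4% of the control mean. CNOT6L was at 63.0% and 57.1% of the control mean on the CNOT6L shRNA array with its pair of probes. These values from single arrays carry no test. The second of these probes (A_33_P3277943) read -1.44 and -1.20 on the controls and -2.13, -1.62 and -1.72 on the CNOT6L, CNOT7 and NOC shRNA arrays, so CNOT6L was below both controls on all 3 shRNA arrays and lowest on its own. NOCT read -4.32 and -4.74 on the controls and -4.67, -4.89 and -4.96 on the CNOT6L, CNOT7 and NOC shRNA arrays. The NOC shRNA array was at 74.3% of the control mean, a decrease of 0.43 that compares with a distance of 0.41 between the controls. The labels list the NOC transcript as the target of the CNOT6L shRNA too, so what that plasmid was designed against is not settled by them.

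**Figure D1:**
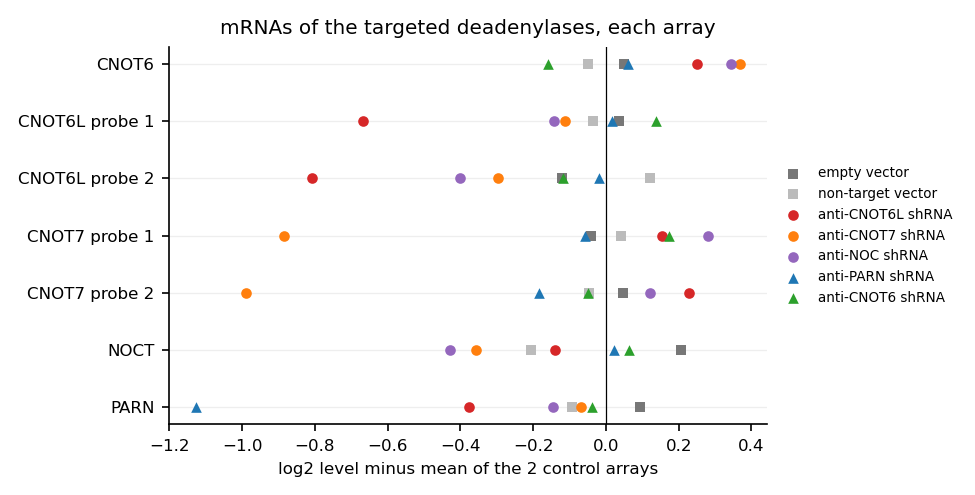
The horizontal axis gives the log2 level on each array minus the mean of the 2 control arrays, for the 7 probes of the deadenylases that were targeted (CNOT6L and CNOT7 have 2 probes each). Squares are control arrays, circles the CNOT6L, CNOT7 and NOC shRNA arrays, and triangles the PARN and CNOT6 shRNA arrays. CNOT6L and CNOT7 lie apart from the other arrays on the array of their own shRNA, and NOCT on the NOC shRNA array lies close to NOCT on the CNOT7 shRNA array.

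Of 13 deadenylase genes measured, 0 passed limma at an adjusted p under 0.05. At an unadjusted p under 0.05, 3 were higher (23.1%) and 2 lower (15.4%), against 10.9% and 11.5% of all 16716 named genes. TOE1, a nuclear deadenylase that trims small nuclear RNAs, came nearest, at 2.37 and 2.41 on the controls and 1.76, 1.93 and 1.86 on the CNOT6L, CNOT7 and NOC shRNA arrays (difference -0.54 ± 0.09, adjusted p = 0.059). CNOT8, the close relative of CNOT7 in the same complex, read 1.47 and 1.31 on the controls and 1.75, 1.85 and 1.59 on the shRNA arrays (0.34 ± 0.11, adjusted p = 0.167). CNOT6, the relative of CNOT6L, differed by 0.32 ± 0.10 (adjusted p = 0.151). The arms did not overlap for these 3 genes, but no difference passed the test. Of the 13 deadenylase genes, 3 were higher and 3 lower without overlap. Over all probes tested, 16.2% were higher and 21.8% lower without overlap. PDE12, a mitochondrial deadenylase, differed by -0.48 ± 0.16 (adjusted p = 0.159), and PARN by -0.20 ± 0.13 (adjusted p = 0.432).

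Across the transcriptome more probes were lower than higher with these 3 shRNAs. Of 34407 probes above background on all 5 arrays, limma called 50 higher (0.145%) and 123 lower (0.357%) at an adjusted p under 0.05, and 3137 higher (9.12%) and 3855 lower (11.2%) had an unadjusted p under 0.05, which makes 173 called (0.503%) and 6992 (20.3%) in either direction. The arms did not overlap for 5587 probes that were higher (16.2%) and 7506 that were lower (21.8%). The smallest adjusted p was 0.0126, the highest among the called was 0.0497 and the lowest among the others 0.0503. The split depended on how arrays were scaled: it was 316 higher and 331 lower with quantile normalization, 206 and 39 without scaling, and 579 and 892 with normexp background correction. The median difference of all probes was -0.06, and 0.33 without scaling. All 173 called probes kept their sign under each of these scalings, which reuse the arrays on which they were called. A fit without 1 array has less power, so a lower count does not tie the calls to that array. The counts changed with each array left out. With limma they were 0 higher and 0 lower without the CNOT6L shRNA array (1983 and 2519 at an unadjusted p under 0.05) or without the NOC shRNA array (2016 and 2463), and 0 and 4 without the CNOT7 shRNA array (2411 higher at an unadjusted p under 0.05). They were 3190 and 1953 without the empty-vector array and 1674 and 4994 without the non-target-vector array, where the lone control was assumed to vary like the shRNA arrays.

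The lower calls reached further from 0 than the higher ones. The higher probes differed by 0.54 to 1.30, with a median of 0.82, and the lower ones by -3.19 to -0.60, with a median of -1.40. The calls also lay at different levels, with a median level of 1.25 for the higher and -1.61 for the lower ones. At a level of 0 or above, 41 were higher, with a median difference of 0.81, and 30 lower, with a median of -0.77. Among the lower probes, 27 differed at least 4-fold, of which 22 were printed on 1 spot. The study's methods give a fold-change cut of 2, while its results give a log2 fold change beyond 2, which is 4-fold. The 2-fold cut was used here and required in all 6 pairs of an shRNA array and a control array. Under it 4 probes were higher (0.0116%) and 121 lower (0.352%), together 125 (0.363%), and 69 of the 121 also passed limma. The 4 higher ones were MOCS3, GPX8, PRDM16 and a long intergenic RNA probe (A_19_P00808452), of which only MOCS3 also passed limma. They are named because the count is small, after their values were seen. GPX8, an endoplasmic reticulum peroxidase, differed by 1.52 (adjusted p = 0.0583) and PRDM16, a chromatin-associated zinc finger protein, by 1.18 (adjusted p = 0.0710).

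**Figure D2:**
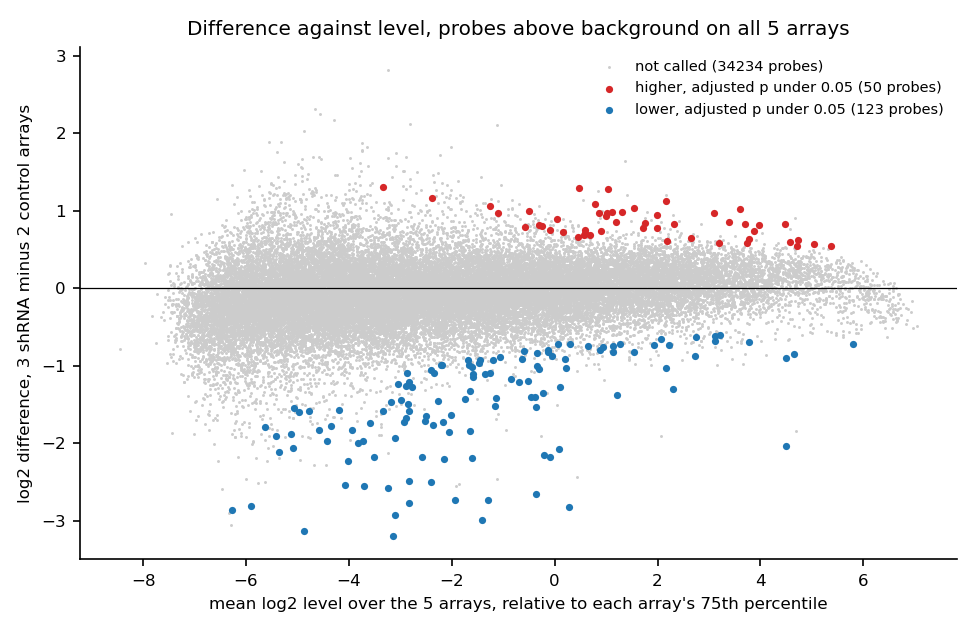
Each point is 1 of 34407 probes. The horizontal axis gives its mean log2 level over the 5 arrays, relative to the 75th percentile of each array, and the vertical axis the log2 difference of the 3 shRNA arrays minus the 2 control arrays; red points are the 50 probes called higher and blue points the 123 called lower. The higher calls end at 1.30 and the lower ones reach -3.19.

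The genes that rose most encoded proteins of several kinds, with stress-related genes among them. By a rule of size that took the 15 highest named genes past the threshold, these were ADGRL2, MOCS3, MAMLD1, MICB, IDUA, HSPA6, ARG2, ULBP2, SESN2, EVX1, LATS2, FHL1, BAG3, SQOR and SNX3. ADGRL2, an adhesion G protein-coupled receptor, read -4.28 and -3.98 on the controls and -2.78, -3.00 and -2.69 on the CNOT6L, CNOT7 and NOC shRNA arrays (1.30 ± 0.19, adjusted p = 0.048), and its further probes differed by 1.12 and 0.12. MOCS3, an enzyme of molybdenum cofactor synthesis and tRNA thiolation, read -0.20 and -0.40 against 1.10, 0.83 and 1.05 (1.29 ± 0.13, adjusted p = 0.0201). Both genes were above the controls on every shRNA array, by more than the distance between the controls.

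MICB and ULBP2, ligands of the natural killer cell receptor NKG2D, were among the genes that rose most. Their direction was set by how that group was picked. Other ligands of the receptor were not examined as a list, so a shared change of these ligands was not tested. MICB read 1.29 and 1.70 on the controls and 2.68, 2.48 and 2.71 on the CNOT6L, CNOT7 and NOC shRNA arrays, a difference of 1.13 ± 0.14 (adjusted p = 0.0373), and its other probe differed by 1.02. ULBP2 read -1.77 and -1.61 against -0.66, -0.77 and -0.73 (0.97 ± 0.12, adjusted p = 0.0372). B2M, the light chain of MHC class I, read 3.36 and 3.44 on the controls and 4.0, 4.01 and 4.13 on the shRNA arrays (0.64 ± 0.09, adjusted p = 0.0420). It was the only one of 42 interferon-stimulated genes measured to pass, the median of that list was 0.05, and on the CNOT6 shRNA array B2M also read 4.0.

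3 genes of protein folding under stress rose. HSPA6, an inducible HSP70, read 3.1 and 2.88 on the controls and 4.07, 3.85 and 4.12 on the CNOT6L, CNOT7 and NOC shRNA arrays (1.02 ± 0.12, adjusted p = 0.0304), and its other probe differed by 1.2. The pseudogene HSPA7 is nearly identical to HSPA6, and the probes may not tell them apart. BAG3, a co-chaperone of HSP70, read 2.91 and 2.83 against 3.73, 3.64 and 3.82 (0.86 ± 0.09, adjusted p = 0.0256). AHSA1, which activates the ATPase of HSP90, read 4.09 and 3.89 against 4.81, 4.76 and 4.86 (0.82 ± 0.09, adjusted p = 0.0304). For each of the 3 genes the lowest shRNA array was above the higher control, as for 16.2% of all probes tested.

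HSPA6 was not in the list of heat shock proteins and chaperones, whose 29 measured genes were examined next. BAG3 and AHSA1 passed, 0 genes were lower past the threshold, and 17 genes (58.6%) were higher and 1 lower at an unadjusted p under 0.05, where 10.9% and 11.5% of all 16716 named genes were. Of those named genes, 30 (0.179%) were higher and 62 (0.371%) lower past the threshold. The median difference over the list was 0.30 (0.28 with empty-vector and 0.23 with non-target-vector as the only control), that over all named genes was -0.02, and without scaling the list was at 0.68. STIP1, which links HSP70 to HSP90, differed by 0.56 ± 0.10 (adjusted p = 0.0570), the chaperonin subunit CCT5 by 0.79 ± 0.14 (adjusted p = 0.0590) and HSPA1B, an inducible HSP70, by 0.76 ± 0.18 (adjusted p = 0.0929). HSPB1, a small heat shock protein, differed by -0.30 ± 0.12 (adjusted p = 0.228) and by 0.36 with its other probe. HSPA1A and HSPA1B are nearly identical and share signal.

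Heat shock factor binds inverted repeats of a short motif, searched here as GAANNTTC or TTCNNGAA, each of which is its own reverse complement. To show where it lies in a gene of this group, the 250 bases before the RefSeq start of HSPA6 (GRCh38.p14, plus strand) and of BAG3 (plus strand) are printed, 5′ to 3′, with matches in capitals. The HSPA6 window is chr1:161524290-161524539 and the BAG3 window chr10:119651130-119651379.
HSPA6: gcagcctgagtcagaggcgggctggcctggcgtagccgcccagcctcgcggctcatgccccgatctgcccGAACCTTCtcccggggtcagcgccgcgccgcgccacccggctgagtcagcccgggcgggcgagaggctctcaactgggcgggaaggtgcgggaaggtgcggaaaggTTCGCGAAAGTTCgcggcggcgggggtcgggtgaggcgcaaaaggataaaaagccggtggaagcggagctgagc
BAG3: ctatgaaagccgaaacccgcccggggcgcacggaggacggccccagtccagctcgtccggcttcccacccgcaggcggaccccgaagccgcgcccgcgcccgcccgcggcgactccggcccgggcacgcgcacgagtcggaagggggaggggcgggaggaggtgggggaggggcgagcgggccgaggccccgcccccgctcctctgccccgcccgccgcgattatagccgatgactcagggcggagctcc
The HSPA6 window held 3 matches, 2 of which overlap 69 and 74 bases before the start, and the BAG3 window 0. Of 34 named genes called higher, 31 matched the RefSeq table, with 60 start windows, and 7 of these (11.7%) held the motif, against 11.6% of all 35116 windows, 9.44% of the windows of tested genes and 4.55% of those of genes called lower.

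Single genes of the integrated stress response and of sterol synthesis were also among the higher ones. SESN2, a leucine sensor induced by the integrated stress response, read 1.36 and 1.46 on the controls and 2.38, 2.23 and 2.47 on the CNOT6L, CNOT7 and NOC shRNA arrays (0.94 ± 0.11, adjusted p = 0.0304). It was the only one of 38 genes of the unfolded protein and integrated stress response to pass. At an unadjusted p under 0.05, 12 were higher (31.6%) and 2 lower (5.3%), against 10.9% and 11.5% of all named genes. The list median was 0.09. The luminal chaperone HSPA5 read 3.74 and 3.48 against 4.4, 4.21 and 4.37 (0.71 ± 0.11, adjusted p = 0.0510), whereas PPP1R15A, a phosphatase subunit of the same response, read 0.88 and 1.21 against 0.27, 0.10 and 0.23 (-0.84 ± 0.13, adjusted p = 0.0504). These neighbours of the threshold lay on opposite sides of the controls.

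HSD17B7, an enzyme of cholesterol synthesis, was higher with all 3 of its probes. The probe with the highest signal (A_33_P3225487) read 0.10 and 0.18 on the controls and 0.94, 0.89 and 0.86 on the CNOT6L, CNOT7 and NOC shRNA arrays (0.75 ± 0.10, adjusted p = 0.0397), and the others differed by 0.80 and 0.67. It was the only gene of 32 in the cholesterol and fatty acid synthesis list to pass. At an unadjusted p under 0.05, 8 were higher (25%) and 1 lower (3.1%), against 10.9% and 11.5% of all named genes. MSMO1, a sterol oxidase, read -1.76 and -0.92 on the controls and -0.17, -0.40 and -0.19 on the shRNA arrays (1.08 ± 0.24, adjusted p = 0.0780), so the controls themselves lay far apart. The list median was 0.16, but 0.29 with empty-vector and 0.01 with non-target-vector as the only control.

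The remaining genes of the higher group were read on every array in the plot of the named genes. LATS2, a kinase of the Hippo pathway, differed by 0.89 ± 0.13 (adjusted p = 0.0463), ARG2, the mitochondrial arginase, by 0.99 ± 0.10 (adjusted p = 0.0251) and IDUA, a lysosomal iduronidase, by 1.06 ± 0.13 (adjusted p = 0.0361). EVX1, a homeobox factor, differed by 0.93 ± 0.10, FHL1, a LIM domain protein, by 0.86 ± 0.11, SQOR, the mitochondrial sulfide oxidase, by 0.84 ± 0.12 and SNX3, a sorting nexin, by 0.83 ± 0.08. MAMLD1 differed by 1.16 ± 0.15, while its other probe differed by 0.26. For all 15 genes the lowest of the 3 shRNA arrays was above the higher control, as for 16.2% of all probes tested. These genes were chosen by their difference on the same arrays.

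**Figure D3:**
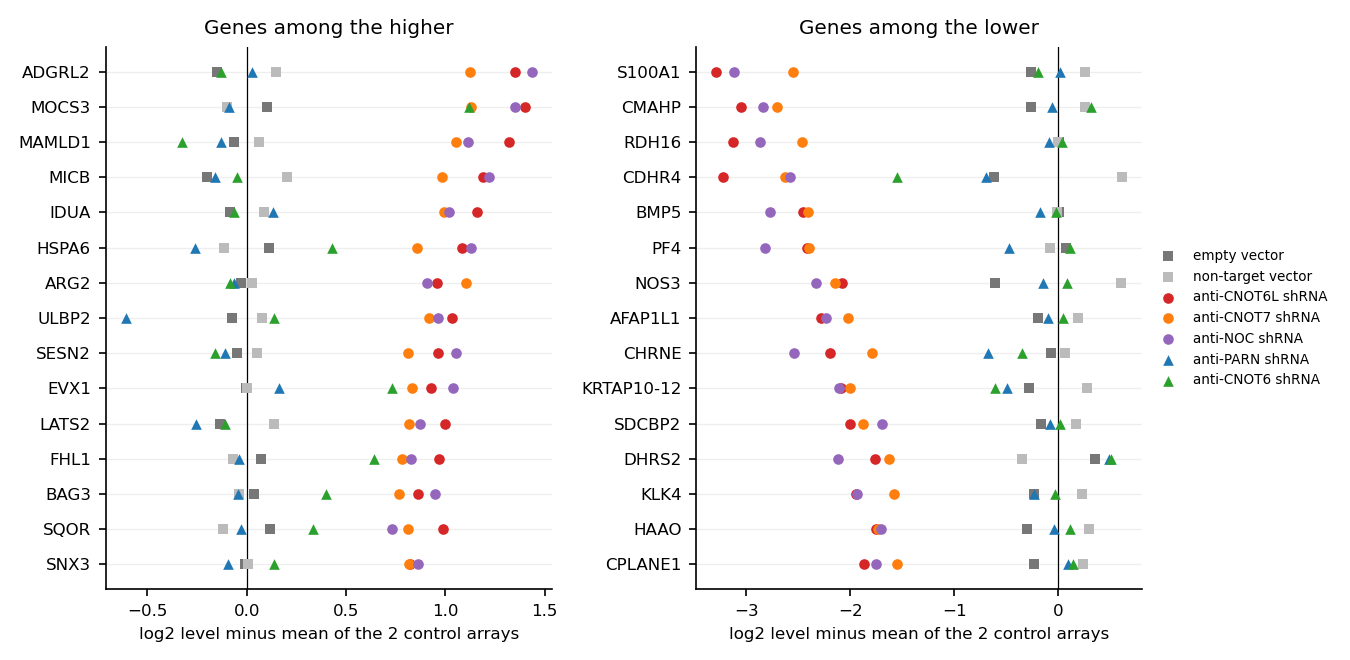
The horizontal axis gives the log2 level on each array minus the mean of the 2 control arrays, for the 15 genes with the largest increase (left) and the 15 with the largest decrease (right) among those past the threshold. Squares are control arrays, circles the CNOT6L, CNOT7 and NOC shRNA arrays, and triangles the PARN and CNOT6 shRNA arrays, which did not enter the test. The circles lie apart from the squares for all 30 genes, which were chosen by that difference. The CNOT6 shRNA array lies near the circles for MOCS3, EVX1 and FHL1, and the PARN shRNA array lies nearer the squares than the circles for all 30.

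The genes that fell most were of many kinds. Of all probes called lower, 75.6% had a mean level under 0, close to the 75.5% of all probes tested. The share was 88.9% of those called at least 4-fold lower and 95.0% of the 121 probes 2-fold lower in all pairs. Of the probes called higher it was 18%. The 15 lowest by the same rule were S100A1, CMAHP, RDH16, CDHR4, BMP5, PF4, NOS3, AFAP1L1, CHRNE, KRTAP10-12, SDCBP2, DHRS2, KLK4, HAAO and CPLANE1. S100A1, a calcium-binding protein best known from heart muscle, read 0.12 and 0.65 on the controls and -2.90, -2.17 and -2.73 on the CNOT6L, CNOT7 and NOC shRNA arrays, which is 7.91-fold lower (-2.98 ± 0.25, adjusted p = 0.0165). RDH16, a retinol dehydrogenase, read 1.98 and 1.97 against -1.16, -0.49 and -0.89, or 7.05-fold lower (-2.82 ± 0.19, adjusted p = 0.0126). BMP5, a ligand of the TGF-beta superfamily, read -2.17 and -2.19 against -4.64, -4.58 and -4.95, or 5.83-fold lower (-2.54 ± 0.19, adjusted p = 0.0126). In these 3 genes the controls differed by far less than the arms did.

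The other large decreases included secreted proteins, enzymes and a pseudogene. PF4, a platelet chemokine, differed by -2.54 ± 0.21 (adjusted p = 0.0151), KLK4, a secreted serine protease, by -1.82 ± 0.23 (adjusted p = 0.0372) and NOS3, the endothelial nitric oxide synthase, by -2.18 ± 0.32 (adjusted p = 0.0497). NOS3 read -0.91 and 0.30 on the controls, which thus lay 1.21 apart, and -2.38, -2.45 and -2.63 on the shRNA arrays. CMAHP, a pseudogene of a sialic acid hydroxylase, differed by -2.86 ± 0.29 and CDHR4, a cadherin-related protein, by -2.81 ± 0.41, but with normexp background correction these were -1.44 and -1.42. A further CDHR4 probe differed by -0.29, and 2 further CPLANE1 probes by -0.32 and -0.08. DHRS2, a mitochondrial reductase, differed by -1.83 ± 0.24, HAAO, of tryptophan breakdown, by -1.73 ± 0.21 and CHRNE, an acetylcholine receptor subunit, by -2.17 ± 0.23. For all 15 genes the highest of the 3 shRNA arrays was below the lower control, as for 21.8% of all probes tested. These genes, too, were chosen by their difference on the same arrays.

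Probes of 1 gene did not always move together. Of 34 genes called higher, 13 had further probes, and all 14 further probes differed in the same direction, 10 with an unadjusted p under 0.05. Of 73 genes called lower, 30 had further probes, of which 29 of 35 differed in the same direction and 20 had an unadjusted p under 0.05. The study singled out GUCA1B, a guanylate cyclase activator, as lower after NOC silencing in NCI-H520 and in the cell line Hep2. The GUCA1B probe A_32_P64200 read 1.23 and 1.21 on the controls and -1.13, -0.77 and -0.97 on the CNOT6L, CNOT7 and NOC shRNA arrays (-2.18 ± 0.13, limma adjusted p = 0.0126). Its other probe (A_23_P81825) differed by 0.16 ± 0.15 (adjusted p = 0.602), so the probes disagreed and GUCA1B was left out of the 15. The decrease of the first probe was found on all 3 shRNA arrays. DPPA3, an oocyte and germ cell factor, was singled out as higher after NOC silencing in both cell lines, with RT-qPCR in NCI-H520. It read -6.22 and -7.14 on the controls and -6.68, -7.62 and -5.00 on the shRNA arrays. Over the arm of 3 different shRNAs the difference was 0.25 ± 0.73 (limma adjusted p = 0.880). Only the NOC shRNA array was above both controls, in the direction the study reported, and this value of a single array carries no test.

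Transcripts of the immediate early and AU-rich class lay below the controls more often than above them. Of 38 measured, 2 fell past the threshold, 0 rose, and 15 (39.5%) were lower and 0 higher at an unadjusted p under 0.05, where 11.5% and 10.9% of all named genes were. The list median was -0.37 (-0.40 and -0.27 against empty-vector and non-target-vector alone), and without scaling, where all probes shifted upward, it was 0.02. On the PARN and CNOT6 shRNA arrays the list median relative to the same controls was 0.22, on the other side of 0. KLF10, a TGF-beta-inducible zinc finger factor, read 3.0 and 3.15 on the controls and 1.88, 1.77 and 1.70 on the CNOT6L, CNOT7 and NOC shRNA arrays, 2.45-fold lower (-1.29 ± 0.10, adjusted p = 0.0126). KLF6, a factor of the same family, read 2.86 and 2.73 against 1.79, 1.76 and 1.73 (-1.03 ± 0.09, adjusted p = 0.0166), and its other probe differed by -0.66.

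Further genes differed without passing the test. DUSP1, a phosphatase of MAP kinases, read 0.24 and 0.66 on the controls and -0.43, -0.47 and -0.44 on the CNOT6L, CNOT7 and NOC shRNA arrays (-0.90 ± 0.14, adjusted p = 0.0526). FOS and JUNB, subunits of AP-1, differed by -0.60 ± 0.14 (adjusted p = 0.0867) and -0.64 ± 0.16 (adjusted p = 0.103), and EGR3, an early growth response factor, by -1.05 ± 0.25 (adjusted p = 0.0932). ZFP36L2, a member of the CCR4-NOT list below and an adaptor that brings CCR4-NOT to AU-rich elements, read 1.67 and 1.21 on the controls and 0.44, 0.51 and 0.76 on the shRNA arrays (-0.87 ± 0.16, adjusted p = 0.0650). The arms of DUSP1 and ZFP36L2 did not overlap. Lower values without overlap were also found for 21.8% of all probes tested. In the lists they were found for 19 of 38 immediate early and AU-rich genes and 7 of 24 CCR4-NOT genes. Of 24 scaffold and adaptor genes of CCR4-NOT, 0 passed limma, with 2 higher (8.3%) and 4 lower (16.7%) at an unadjusted p under 0.05. Of 41 genes of the poly(A) tail and mRNA decay machinery 0 passed, with 4 higher (9.8%) and 5 lower (12.2%). Over all named genes these shares were 10.9% and 11.5%.

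GADD45B, a stress-induced regulator of MAP kinase signalling, was the only 1 of 28 p53 targets measured to fall past the threshold. It read 4.13 and 4.27 on the controls and 3.55, 3.47 and 3.50 on the CNOT6L, CNOT7 and NOC shRNA arrays (-0.69 ± 0.09, adjusted p = 0.0373). SESN2, of the same list, rose past the threshold. At an unadjusted p under 0.05, 5 were higher and 5 lower (17.9% each), against 10.9% and 11.5% of all named genes. Further inducible genes fell and are named here, as are NFKBIA and TNFAIP3, after their values were seen. GADD45G, a relative of GADD45B, fell with both probes, by -0.85 ± 0.10 (adjusted p = 0.0314) and -0.87 ± 0.10 (adjusted p = 0.0310). ID2, an inhibitor of helix-loop-helix factors, read 5.04 and 5.02 against 4.03, 4.25 and 4.12 (-0.89 ± 0.09, adjusted p = 0.0218). The Notch ligand DLL1 differed by -1.38 ± 0.15 (adjusted p = 0.0251), and HEY1, a transcription factor induced by Notch, by -1.21 ± 0.18 (adjusted p = 0.0482). MAFF, a small Maf factor printed on 10 spots, differed by -1.10 ± 0.15 (adjusted p = 0.0420).

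NFKBIA and TNFAIP3, feedback inhibitors of NF-kappa B, were both lower. NFKBIA, printed on 10 spots, read 3.48 and 3.51 on the controls and 2.78, 2.90 and 2.95 on the CNOT6L, CNOT7 and NOC shRNA arrays (-0.62 ± 0.09, adjusted p = 0.0482). TNFAIP3 read 0.72 and 0.21 against -1.17, -0.83 and -0.81 (-1.40 ± 0.19, adjusted p = 0.0420). On the CNOT6 shRNA array NFKBIA read 3.89 and TNFAIP3 0.87, above both controls. NF-kappa B binds a motif searched here as GGGA and TTCC with any 2 bases between them, or on the other strand GGAA and TCCC with 2 bases between, shown in capitals in the 250 bases before each RefSeq start (GRCh38.p14, 5′ to 3′ on the strand of the gene). The NFKBIA window is chr14:35404750-35404999 (minus strand) and the TNFAIP3 window chr6:137867009-137867258 (plus strand).
NFKBIA: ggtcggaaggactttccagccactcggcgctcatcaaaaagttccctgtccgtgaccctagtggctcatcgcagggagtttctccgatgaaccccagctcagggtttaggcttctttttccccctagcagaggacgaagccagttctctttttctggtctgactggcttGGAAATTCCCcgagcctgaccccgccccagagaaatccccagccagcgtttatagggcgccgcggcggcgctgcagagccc
TNFAIP3: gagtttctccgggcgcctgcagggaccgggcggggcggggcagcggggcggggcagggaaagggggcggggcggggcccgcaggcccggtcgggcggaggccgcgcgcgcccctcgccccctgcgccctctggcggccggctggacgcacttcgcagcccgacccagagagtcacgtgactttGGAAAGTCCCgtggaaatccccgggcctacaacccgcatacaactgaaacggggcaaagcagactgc
Each window held 1 match, 81 bases before the start in NFKBIA and 67 in TNFAIP3. They were the only ones to hold it among 66 windows of the 53 lower genes that matched the RefSeq table, of 73 (3.03% of windows, against 1.40% of all windows). The share was 1.34% for windows of tested genes. Among genes called higher, 1 of 60 windows (1.67%) held the motif, that of B2M. The match is a description of these sequences and no measure of binding.

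Among mitotic genes, values below the controls were frequent. Of 44 mitotic genes 1 fell past the threshold, and 21 (47.7%) were lower and 0 higher at an unadjusted p under 0.05, against 11.5% and 10.9% of all named genes. CDC20, the activator of the anaphase-promoting complex, read 3.09 and 3.16 on the controls and 2.51, 2.49 and 2.51 on the CNOT6L, CNOT7 and NOC shRNA arrays (-0.63 ± 0.08, adjusted p = 0.0405). The list median was -0.27, but 0.11 without scaling, where CDC20 was at -0.24. On the PARN and CNOT6 shRNA arrays the list median relative to the controls was -0.16. Of 46 genes of DNA replication 0 passed, and 8 were higher (17.4%) and 0 lower at an unadjusted p under 0.05, with a median of 0.07.

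Of 23 circadian clock genes, 0 passed with the probe of highest signal, and 1 was higher and 7 lower at an unadjusted p under 0.05. BHLHE41 and BHLHE40, repressors of the clock, differed by -0.87 ± 0.17 (adjusted p = 0.0662) and -0.74 ± 0.14 (adjusted p = 0.0650), and the nuclear receptor NR1D1 by -0.68 ± 0.14 (adjusted p = 0.0715). PER2, a core repressor, differed by -0.47 with the probe of highest signal (adjusted p = 0.113) and fell with another probe (A_23_P411162, named after its value was seen), at -0.96 and -1.03 on the controls and -2.07, -1.91 and -2.06 on the CNOT6L, CNOT7 and NOC shRNA arrays (-1.02 ± 0.13, adjusted p = 0.0373). The clock list had a median of -0.07 (-0.16 and -0.11 with either control alone), against -0.02 over all named genes, and its 7 lower genes were 30.4% of it, against 11.5%.

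Respiratory chain genes differed by small amounts, mostly in 1 direction. Of 74, 0 passed limma, while 33 (44.6%) were higher and 1 lower at an unadjusted p under 0.05, against 10.9% and 11.5% of all named genes, with a median of 0.20 (0.22 and 0.17 against the empty-vector and non-target-vector arrays). NDUFA11, a subunit of complex I, read 3.29 and 3.41 on the controls and 3.95, 3.90 and 3.81 on the CNOT6L, CNOT7 and NOC shRNA arrays (0.53 ± 0.09, adjusted p = 0.0553). ATP5F1C, of the ATP synthase, differed by 0.56 ± 0.10 (adjusted p = 0.0570) and SDHA, of complex II, by -0.42 ± 0.10 (adjusted p = 0.0925). Of 35 proteasome genes, 0 passed, with 9 higher (25.7%) and 1 lower at an unadjusted p under 0.05 and a median of 0.11. Of 78 cytosolic ribosomal protein genes, RPS3 alone passed (0.60 ± 0.08, adjusted p = 0.0397), with 12 higher (15.4%) and 9 lower (11.5%) at an unadjusted p under 0.05. RPS3 has processed pseudogenes that may share signal with its probe, and its list had a median of -0.05, which was 0.11 with quantile normalization.

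Some lists were decided by which control was used. The muscle contraction list (34 genes) had a median of 0.04, which was -0.25 when set against empty-vector and 0.34 when set against non-target-vector. Its 1 gene past the threshold was TCAP, a sarcomere protein, at 1.94 and 1.72 on the controls and 2.73, 2.52 and 2.71 on the CNOT6L, CNOT7 and NOC shRNA arrays (0.83 ± 0.11, adjusted p = 0.0433). The 12 blood cell and endothelial markers, at -0.18 and 0.48, split in the same way, and so did the 13 squamous markers, at -0.19 and 0.09. Their direction thus depended on the control. The interferon-stimulated genes, at 0.17 and -0.09, split the opposite way. Of the 30 NRF2 and antioxidant genes, 33 glycolysis and hypoxia genes and 43 cell junction and adhesion genes, 0 passed, with 1 higher and 2 lower, 3 and 3, and 4 and 1 at an unadjusted p under 0.05. Each of these counts was at most 9.3% of its list, against 10.9% higher and 11.5% lower among all named genes.

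**Figure D4:**
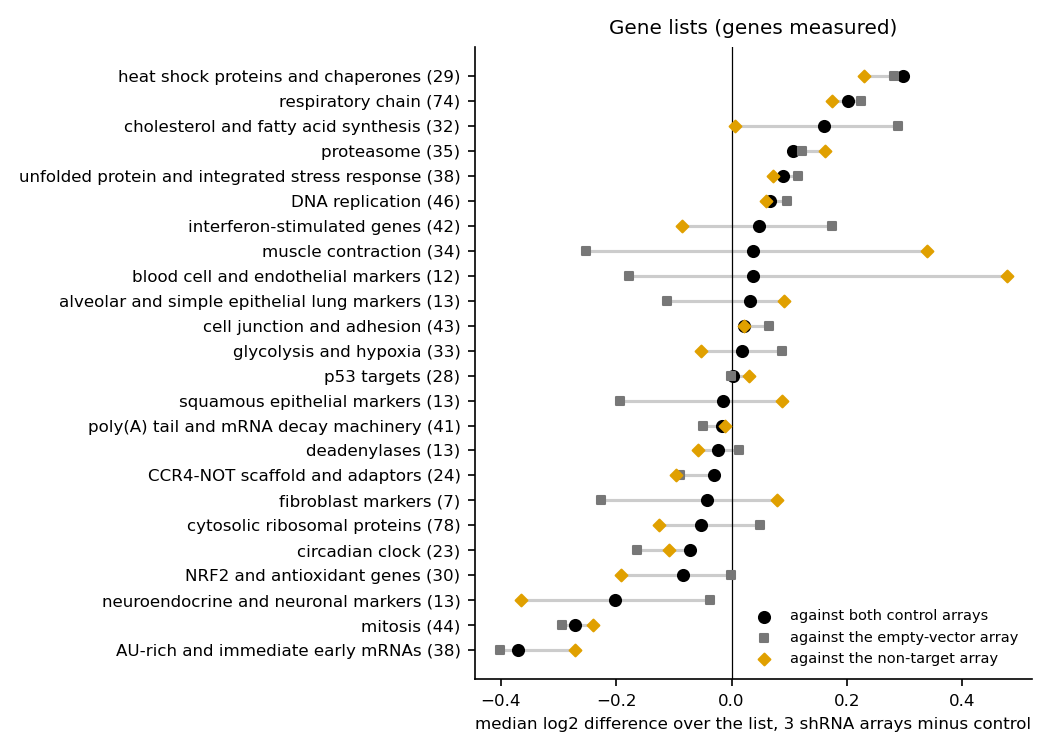
The horizontal axis gives the median log2 difference over the genes of each of 24 lists, with 1 probe per gene and the number of genes measured in brackets. Black circles are against both control arrays, grey squares are against empty-vector alone and yellow diamonds against non-target-vector alone. The heat shock list is highest (0.30) and the AU-rich and immediate early list lowest (-0.37), with all 3 symbols on 1 side of 0 for both, while the muscle contraction symbols lie on both sides of 0.

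No marker list of a cell type held a gene past the threshold. Summed over each list on a linear scale relative to the 75th percentile, the 18 squamous markers came to 39.5 and 45.4 on the controls and 28.8 to 34.8 on the shRNA arrays. The 13 measured differed by a median of -0.02. At an unadjusted p under 0.05, 2 were higher and 2 lower (15.4% each), against 10.9% and 11.5% of all named genes. SOX2, a bright member that carries most of that sum, read 5.11 and 5.38 on the controls and 4.84, 4.58 and 4.88 on the CNOT6L, CNOT7 and NOC shRNA arrays (-0.48 ± 0.13, adjusted p = 0.110). The keratins KRT6A and KRT6B lay on the other side, at 0.85 ± 0.20 (adjusted p = 0.0860) and 0.92 ± 0.33 (adjusted p = 0.188). The 14 neuroendocrine and neuronal markers came to 68.9 and 85.7 on the controls and 66.8 to 76.3 on the shRNA arrays. Of the 13 measured 0 passed, and 5 (38.5%) were lower at an unadjusted p under 0.05, against 11.5% of all named genes. NCAM1 differed by -0.73 ± 0.20 (adjusted p = 0.116). The fibroblast sums were 0.434 to 0.679 on the controls and 0.554 to 0.651 on the shRNA arrays. The sums of blood cell and endothelial markers were 14.9 and 8.0 on the controls and 13.8 to 14.2 on the shRNA arrays, and those of alveolar and simple epithelial markers 152 to 153 and 138 to 143. In these sums the arms overlapped for the neuroendocrine, fibroblast and blood cell markers, while the squamous and the alveolar sums, which rest on few bright genes, were lower on all 3 shRNA arrays. The median difference of the alveolar list was 0.03. The markers' part in the results was not tested.

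The arrays of the other deadenylase shRNAs, in the slide row of the controls, were then placed between the arms, at 0 for the control mean and 1 for the mean of the 3 shRNA arrays. The PARN shRNA array was nearer the control mean for 50 of 50 higher probes (median position -0.07) and for 123 of 123 lower probes (median -0.04). The CNOT6 shRNA array was nearer the control mean for 117 of 122 lower probes (median -0.01), but for only 27 of 50 higher ones (median 0.44). Nearer the control mean does not mean level with it: for the lower probes the positions reached 0.34 on the PARN shRNA array and 0.95 on the CNOT6 shRNA array, and CHRNE, at -1.95 and -1.62 there, was below both controls. For 23 of the higher probes the CNOT6 shRNA array was nearer the shRNA arm. Set directly against the PARN and CNOT6 shRNA arrays, the same 3 shRNA arrays were higher for 1582 (4.6%) and lower for 3956 (11.5%) of 34372 probes past the threshold. The position of the CNOT6 shRNA array was 0.93 for B2M, 0.86 for MOCS3, 0.79 for EVX1, 0.75 for FHL1, 0.58 for AHSA1, 0.46 for BAG3 and 0.42 for HSPA6. It was -0.04 for MICB, -0.17 for SESN2, -0.18 for HSD17B7 and 0.00 for KLF10.

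**Figure D5:**
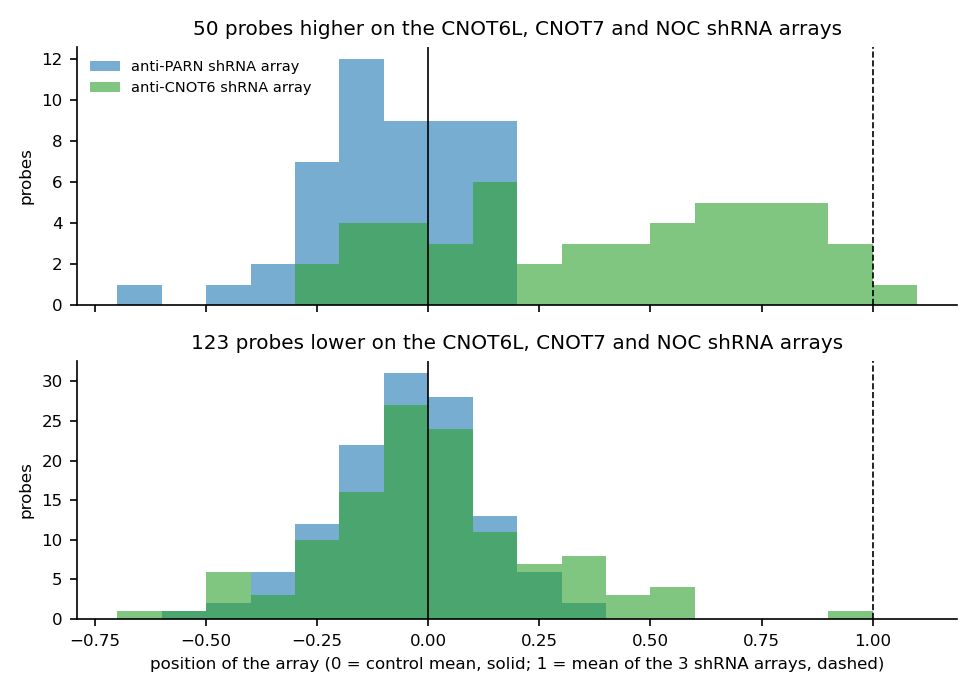
The horizontal axis gives the position of an array between the control mean (0, solid line) and the mean of the CNOT6L, CNOT7 and NOC shRNA arrays (1, dashed line), and the vertical axis the number of probes, for the 50 probes called higher (top) and the 123 called lower (bottom). The PARN shRNA array (blue) lies around 0 in both panels, and the CNOT6 shRNA array (green) lies around 0 below and spreads from 0 to 1 above.

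Some transcripts could be read in 1 arm only. Above background on both controls and on none of the 3 shRNA arrays were 37 of 42405 gene probes, of which 17 were at least 4-fold lower on the shRNA arrays. Above background on all 3 shRNA arrays and on neither control were 52, of which 14 were at least 2-fold higher and 0 at least 4-fold. The direction of these probes was set by how they were picked and is no result in itself. The bound sets the mean of the bright arm against that of the dim arm, where each array counts at its own signal or at the lowest signal of a probe above background on it, whichever is higher. FABP4, a fatty acid carrier, was at least 5.62-fold lower, the potassium channel KCNC2 at least 10.3-fold, BTBD18 at least 6.15-fold, EDDM3B at least 6.08-fold and the signalling adaptor STAP1 at least 5.65-fold. FABP4 read -6.51 and -6.15 on the controls and -6.85 and -6.88 on the PARN and CNOT6 shRNA arrays. In the other direction TIFA, an adaptor upstream of NF-kappa B, was at least 3.06-fold higher, the olfactory receptor OR2K2 at least 2.61-fold, UMODL1 at least 2.59-fold, the transcription factor NFIA at least 2.56-fold and the keratin KRT77 at least 2.41-fold. Several bounds rested on 1 array, as leaving out each array of the bright arm showed, a check chosen after seeing the data. Without the non-target-vector array the bound was 2.84-fold for KCNC2, 3.67-fold for BTBD18 and 3.97-fold for EDDM3B, and without the empty-vector array it was 37.2-fold, 10.3-fold and 9.31-fold. Without the CNOT6L shRNA array, on which TIFA read -4.83 and NFIA -5.58, it was 1.87-fold for TIFA and 1.65-fold for NFIA. These probes were not in the test.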

How the data were processed

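RNA of NCI-H520 cells was hybridised to 1-colour Agilent 60 K arrays. The authors deposited, per the file headers and the submitters' processing notes, scanner files from Agilent Feature Extraction 10.7.3.1 that hold the intensity of 62976 spots per array, already background-subtracted by that software, and a series table of log2 values, centred per probe by the authors. Here the processed signal was divided by its 75th percentile over the gene spots of an array and taken to log2. After removal of control and outlier spots, spots were averaged to 42405 probes. Probes well above background on at least 50% of their spots on all 5 arrays were tested (34407). Symbols came from RefSeq (GRCh38.p14, names only, 24826 probes), and the CNOT6 probe through the target accession in the labels with a zero restored.

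Groups were taken from the labels. The arms of 3 and 2 arrays were compared by limma 3.58.1 in R 4.3.3 (lmFit, eBayes with an intensity trend, two-sided) with Benjamini-Hochberg adjustment at 0.05 over all probes tested. The test was checked on simulated data. The 24 gene lists were represented by the probe of highest signal per gene and described by counts and medians. The members and lists were chosen with earlier results of these data known, and the same holds for the naming rule: all deadenylases, the 15 highest and 15 lowest named genes past the threshold without a probe of opposite sign, up to 4 per list, DPPA3 and GUCA1B, and the 5 largest bounds per direction among probes above background in 1 arm. Alternatives covered normalization, background correction (normexp with an offset of 50 on the median signal, as the files used hold no mean signal), the series table, filters, variance model and each array left out. The number of arrays limits the precision. Untransfected cells were not analysed here.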

Additional observations from a re-analysis of the deposited data

Results flagged for a closer look

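The same 3 shRNA arrays were also set against the PARN and CNOT6 shRNA arrays, and what follows is where that difference passed limma at an adjusted p under 0.05. Both comparisons use these 3 arrays, and slide row separates the arms here too. Of 34372 probes, 1582 were higher (4.6%) and 3956 lower (11.5%). Of the genes with the largest increases, the log2 differences were 1.39 for MAMLD1, 1.35 for ADGRL2, 1.23 for MICB, 1.21 for ULBP2, 1.08 for SESN2, 1.08 for LATS2, 1.06 for ARG2, 1.02 for IDUA, 0.94 for HSPA6, 0.81 for SNX3, 0.69 for SQOR and 0.68 for BAG3, with adjusted p from 0.00245 to 0.0203. MOCS3, EVX1 and FHL1 did not pass. All 15 of the largest decreases passed, with adjusted p from 0.00149 to 0.0176. These were -2.99 for CMAHP, -2.90 for S100A1, -2.79 for RDH16, -2.45 for BMP5, -2.36 for PF4, -2.33 for DHRS2, -2.15 for NOS3 and -2.15 for AFAP1L1. The smaller ones were -1.84 for CPLANE1, -1.83 for SDCBP2, -1.77 for HAAO, -1.69 for KLK4, -1.68 for CDHR4, -1.67 for CHRNE and -1.52 for KRTAP10-12.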

How the results depend on the processing

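The number of probes past the threshold depended on the processing. All 173 called probes kept their sign under every alternative in which they were tested. They were called for their difference on arrays that every alternative reuses in part, so this is no separate support. Against 50 higher and 123 lower in limma, the counts were 316 and 331 with quantile normalization, 206 and 39 without scaling, 579 and 892 with normexp, 0 and 0 in the series table (3271 and 3195 at an unadjusted p under 0.05), 0 and 12 without the intensity trend (2430 higher at an unadjusted p under 0.05), 8 and 41 without a filter and 862 and 1003 at an adjusted p under 0.1. With probes above background on at least 2 arrays 27 were higher, with all 7 arrays in the fit 247 were lower, and against the PARN and CNOT6 shRNA arrays the counts were 1582 and 3956. Leaving out 1 array gave 0 to 3190 higher and 0 to 4994 lower. By the 2-fold rule in all pairs, 4 higher and 121 lower became 21 higher with quantile normalization, 38 and 45 without scaling, 0 and 65 with normexp, 8 higher in the series table, 7 higher with the filter on 2 arrays, 9 and 231 without a filter, 0 and 16 at 4-fold and 26 and 318 against the PARN and CNOT6 shRNA arrays. Leaving out 1 array gave 4 to 746 higher and 151 to 1419 lower, and with fewer pairs required these counts could not fall. PECAM1, an endothelial marker, reversed past the threshold, at 0.95 without the empty-vector array against -0.40, and it was -1.74 without the non-target-vector array. Values that passed under neither setting also changed sign when an array was left out, among them DPPA3 (-0.47 without the NOC shRNA array, -0.21 without non-target-vector), ACTA2 (-0.08 without non-target-vector), SLC2A3 (-0.19 without empty-vector) and the muscle, squamous, blood cell and interferon list medians. The cause of these changes was not tested. No paired analysis was possible because every group has 1 array and the labels give no number that pairs arrays. Each group is a single array, and a probe had to be above background on all 5 arrays to be tested.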
